A study of Homo sapiens with 24 samples.

Results

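Transcribed pseudogenes are described here in MRC5 fibroblasts under oxidative stress (OS), in total RNA and along a polysome gradient. The members are the catalog probes on the array whose gene symbol ends in P, or in P and a number, as pseudogene symbols do, and whose accessions hold a non-coding and no coding RefSeq transcript. Copies of ribosomal protein genes, small nucleolar RNAs and loci without a symbol were left out, HERC2P4 met the rule, and FAM58BP was added by name. The rule gave 192 probes of 168 genes, among the 61537 non-control probes of 37109 gene or transcript names on the array. The rule itself used names and accessions and no measured value. The members were, however, chosen with earlier results of these data known, and FAM58BP, added by name, is in all the counts below. RefSeq (assembly GRCh38.p14, used for names and types only) matched 172 of the 192 probes by accession and 6 by symbol, and 14 were unmatched. It lists 148 of the genes as transcribed pseudogenes. Against the label, it lists 4 genes as protein-coding (CCDC163P, CIRBP, GSTTP1 and MOBP), RMRP as the RNA of RNase MRP, and HSP90AB2P and SLC7A5P1 as pseudogenes not marked as transcribed. FAM58BP was among the 13 unmatched genes, and its probe carries an accession of the coding kind, so its standing as a pseudogene rests on its name alone.

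A pseudogene is a copy or relic of a protein-coding gene that no longer encodes that gene's protein. Processed copies arose when a spliced mRNA was copied back into the genome, and unprocessed copies arose by duplication and keep introns. Many are transcribed, some of the RNAs act on the parent's mRNA by sharing binding sites for small RNAs, and a spliced and polyadenylated copy can meet ribosomes much as its parent does. Because parent and copy share most of their sequence, a hybridisation probe can read either.

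The 24 arrays held 3 replicates of each of 8 groups, from untreated MRC5 cells (a human lung fibroblast line) and MRC5 cells given 0.2 mM H2O2 for 2 h. For each treatment a whole-cell extract gave the total RNA. The clarified lysate of cycloheximide-treated cells was run on a sucrose gradient whose fractions were pooled as untranslated (fractions 1 to 9, free particles and single ribosomes), low (10 to 14, light polysomes) and high (15 to 23, heavy polysomes). Equal RNA masses were labelled from oligo-dT primers in 1 colour, so a level in a pool is the transcript's place in that pool's RNA, not the share of its molecules found there. Sedimentation was read, and peptides were not. As each array read the RNA of many cells, fewer cells carrying a transcript and less of it per cell cannot be told apart. The methods describe repeats from independent RNA preparations, each read on several arrays, but no label ties an array to a preparation or culture, so the tests measure the spread between these arrays, which may be partly technical.

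The fibroblast genes COL1A1, COL3A1, LUM and THY1 were well above background (the scanner software's mark) on every total RNA array. Averaged over these 4 genes, the arrays had 13.9 to 14.06 as normalised log2 signal, the scale of all levels given here. Markers of other lineages were not absent. The epithelial genes CLDN4 and KRT18, the leukocyte gene PTPRC (at 1 of 3 probes) and the endothelial gene CDH5 were also above background on every total RNA array. The epithelial gene EPCAM was above background on no control and 2 OS total RNA arrays, with means of 5.05 and 5.42. The endothelial gene VWF was on none. Their part in the results was not tested. Of the stress response genes, ATF3 rose by 4.70 to 4.83 in total RNA at 3 probes, while its other probe read 0.66 and EGR1 read 0.86, neither of them called (limma adjusted p = 0.308 and 0.11). Replicate 3 of the OS low pool stood apart, with 95.8% of pseudogene probes above background against 30.7% to 59.4% on the other 23 arrays. It enters every estimate of the spread, so values without it are given where they change. On control total replicate 1, 173 catalog probes lay more than 4 log2 units below both other replicates, among them probes of GUSBP1, SBDSP1 and SLC7A5P1.

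Each probe is 60 bases long. The last 30 bases of the probes of FAM58BP (chr1:200183583-200183642, plus strand) and HERC2P4 (chr16:32163159-32163218, minus strand, both GRCh37) are shown because these genes changed most clearly in total RNA. Of the 192 probes, 22 resembled another probe on the array, 7 of them a coding catalog probe and 7 a custom lncRNA probe. Probes were compared with probes and not with transcripts, so these counts cannot show how many could read a parent's mRNA. 3 cases are shown as aligned stretches of 30 bases, with capitals for the bases that differ. DTX2P1-UPK3BP1-PMS2P11 (chr7:76635087-76641250, plus strand, a span longer than the probe) and PMS2, the mismatch repair gene, share 55 of 55 aligned bases. AKR7A2P1 (chr1:113466600-113466659, plus strand) and the aldehyde reductase gene AKR7A3 share 33 of 39. The 2 overlapping probes of DNM1P46 (chr15:100339979-100340038 and chr15:100339983-100340036, minus strand) share 49 of 52.
FAM58BP: acagtccctagcagtcacggtccagatgat
HERC2P4: gtctatgaggtagttctaattattttaaaa
DTX2P1-UPK3BP1-PMS2P11: gtacagaacctgctaaggccatcaaaccta
PMS2: gtacagaacctgctaaggccatcaaaccta
AKR7A2P1: cagccCAtgggccgcttctttgggaCtCAA
AKR7A3: cagccTGtgggccgcttctttgggaAtACC
DNM1P46: ctcagaCctgctgtccaacctgcactcgcG
DNM1P46, second probe: ctcagaGctgctgtccaacctgcactcgcT
A further 14 probes list accessions of several RefSeq genes, up to 4 for 1 probe. The PMS2P4 probe lists PMS2P1 to PMS2P4, so its signal cannot be assigned to 1 copy.

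Pseudogene probes were detected less often than coding ones. In total RNA of control cells 82 of 192 (42.7%) were well above background on all 3 arrays, against 65.9% of coding catalog probes and 22% of custom lncRNA probes. Upon OS the shares were 48.4%, 68.6% and 25.0%. The untranslated pool had the lowest share in both treatments, 29.2% and 29.7% of pseudogene probes, and the high pool had 39.6% and 42.2%. In all, 106 probes of 97 genes were detected in at least 1 group, 50 probes (26.0%, against 47.9% of coding probes) in all 8, and 86 (44.8%, against 25.8%) in none. A probe was tested in a comparison where at least 1 compared group had it above background on all 3 arrays, and was called at an adjusted p under 0.05 in limma over all probes tested.

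In total RNA, 8 of 97 pseudogene probes tested were called higher upon OS, where 3.07% of all catalog probes were, and 7 were called lower, against a background of 3.06%. The strongest rise by test was FAM58BP, and the strongest fall was HERC2P4. Of the 8 that rose, 7 were not above background on all 3 control arrays, and 1, FAM58BP, was called when both groups had to be. It was then 1 of 78 probes, beside 168 of 9482 catalog probes, so the higher count of rises than in the catalog was not seen under that filter. Falls under the same filter numbered 6 of 78, beside 223 of 9482 catalog probes. The member median was 0.03, beside −0.02 for the catalog.

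TMED11P, a copy of a gene family of cargo receptors between the endoplasmic reticulum and the Golgi, read 3.22, 3.16 and 3.24 on the control arrays, none above background, and 7.28, 6.84 and 7.17 upon OS. The OS arrays were all higher, by at least 3.82-fold, counted against the lowest signal that is well above background on each control array (limma adjusted p = 0.00022). LAMB2P1, a copy of the laminin beta 2 gene of basement membranes, read 3.4, 6.0 and 5.83 in control cells and 8.54, 8.55 and 7.54 upon OS, a log2 difference of 3.14 ± 0.56 (SE, n = 3; adjusted p = 0.00103). The lowest control value came from replicate 1, and without that array the difference was 2.29. KRT42P, a type I keratin pseudogene, rose by 2.52 ± 0.50 at 1 of its 2 probes (adjusted p = 0.00251), from 6.0, 5.79 and 5.25 to 8.27, 8.20 and 8.14, with no overlap. NUDT9P1, copied from an ADP-ribose hydrolase gene, was at least 3.97-fold higher, CYMP, the human relic of the milk-clotting protease chymosin, at least 2.99-fold, and TCAM1P, a cell adhesion pseudogene, at least 1.69-fold. 1 of the 3 probes of DNM1P46, a copy of the membrane-scission GTPase gene DNM1, was called (1.99, adjusted p = 0.0319), while the other probes read −0.46 and −0.41, so the gene's probes differ, and the call was lost without any 1 of 5 total arrays (all but control replicate 1).

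**Figure D1:**
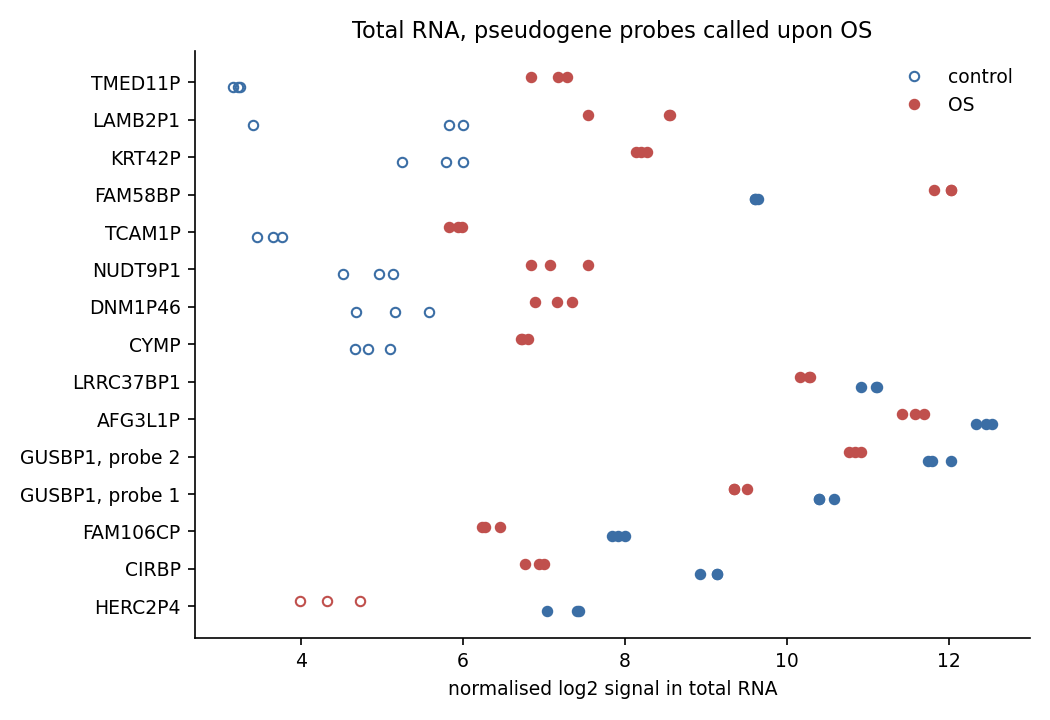
Normalised log2 signal in total RNA of the 15 pseudogene probes called upon OS, 1 point per array (3 control, 3 OS), in order of the log2 difference. Filled points mark groups above background on all 3 arrays and open points the others. The control and OS arrays do not overlap for any of these probes, and all the probes that rose, other than FAM58BP, have open control points.

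Among the probes that fell, HERC2P4, a copy of the HERC2 ubiquitin ligase gene, read 7.43, 7.04 and 7.40 in control cells and 4.32, 4.73 and 3.99 upon OS, where no array had it above background. The fall was at least 4.85-fold (limma adjusted p = 3.4e-06), and with normexp background correction the log2 difference shrank from −2.94 to −1.12. HERC2 itself read −1.27 and was not called (adjusted p = 0.0632), and HERC2P2 read −0.68 (adjusted p = 0.393). The probe of CIRBP, the coding gene of a cold-inducible RNA-binding protein, fell by 2.17, from 9.14, 8.92 and 9.14 to 6.94, 6.76 and 7.00 (SE 0.55, limma adjusted p = 0.0171). The rule took this probe in by the gene's last letter and a non-coding accession. It lists no coding transcript, so its values need not be those of CIRBP mRNA. Its groups were far apart, yet the call was lost without any 1 of 4 total arrays (control replicates 1 and 3, OS replicates 1 and 2). FAM106CP fell by 1.60 at 1 of its 2 probes, while the other read −1.37 and was not called. At 2 of its 3 probes GUSBP1, copied from the lysosomal beta-glucuronidase gene, fell by 1.06 (a call lost without control replicate 1 or OS replicate 1 or 3) and 1.01, while its other probe read 1.81, with 1 low control array, and was not called. AFG3L1P, of a mitochondrial protease gene family, fell by 0.88 at 1 probe. LRRC37BP1 fell by 0.80 at 1 of its 2 probes, while the other read −0.36 and was not called. Without replicate 3 of the OS low pool 11 probes were called lower.

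Some of these RNAs were above background on all 3 arrays of a total RNA group and of no pool. This held for 11 of the 97 pseudogene probes detected in a total RNA group (11.3%), beside 111 of 8548 coding probes (1.3%). The 2 shares were not matched for signal. Some of the 11 were dim in total RNA too, such as CYP2G1P (3.8 in control cells and 5.33 upon OS) and ANKRD20A5P (5.56 and 4.89). Others were brighter. The CIRBP probe, which lists no coding transcript, had a mean of 9.07 in control total RNA. It had at most 6.21 on any of the 18 pool arrays, and none of them was above background. AQP7P1, copied from an aquaporin gene, had 8.95 in control total RNA and at most 5.51 in the pools, where 2 of 18 arrays had it above background. HERC2P4 and both FAM106CP probes were of this kind too, as were TCAM1P and NUDT9P1 among those that rose. Total RNA came from whole-cell extracts and the pools from clarified lysates, and the part of that difference in these counts was not tested.

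FAM58BP, named after FAM58A, the gene of the cyclin partner of the kinase CDK10, changed in its level and in its place in the gradient. In total RNA it read 9.64, 9.61 and 9.61 in control cells and 12.02, 11.82 and 12.03 upon OS, a 5.06-fold rise (log2 2.34 ± 0.13 SE, limma adjusted p = 5.5e-10). In the high pool it read 8.76, 9.01 and 8.96 in control cells and 12.41, 11.99 and 12.29 upon OS, a 10.0-fold rise (log2 3.32 ± 0.13 SE, adjusted p = 1.09e-11). In the untranslated pool it read 11.53, 11.38 and 11.55, then 11.72, 11.82 and 11.85, a difference of 0.31 that was not called (adjusted p = 0.0775). The OS arrays lay above the control arrays in all 4 kinds of RNA under the main normalization, most widely in the heavy polysomes, but the low pool difference of 0.97 turned to −0.25 with arrays scaled to the 75th percentile of all probes together. In control cells its place resembled that of FAM58A, with a high minus untranslated difference of −2.58 for FAM58BP and −2.41 and −2.20 at the 2 FAM58A probes. Upon OS, FAM58BP was slightly higher in the high pool (0.43, adjusted p = 0.00681), while the FAM58A probes stayed lower there (−1.87 and −1.69). FAM58A was not called in total RNA (−0.09 and 0.17) or in the high pool (0.09 and 0.03), and fell in the untranslated pool (−0.44 and −0.48).

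**Figure D2:**
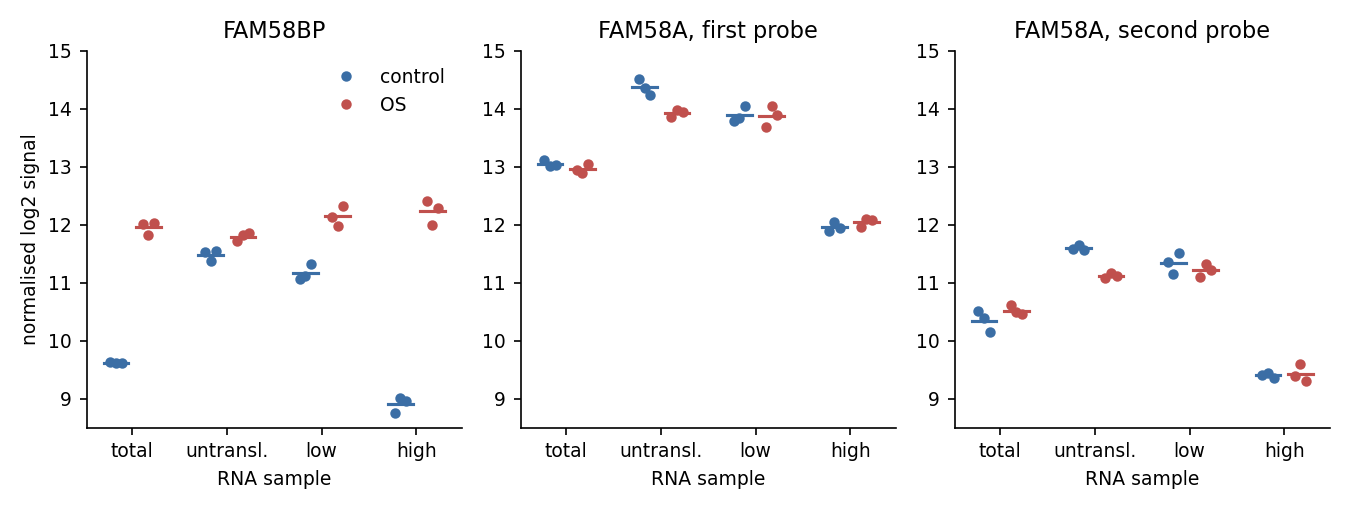
Normalised log2 signal of the FAM58BP probe and both FAM58A probes in the 4 kinds of RNA, 1 point per array (3 per group) and a line at each group mean. FAM58BP in the high pool rose from a mean of 8.91 to 12.23 upon OS, while the first FAM58A probe had means of 11.96 and 12.05 there. Heights are not comparable between probes.

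In the untranslated pool, 9 of 59 probes tested were called higher upon OS and 8 lower, shares of 15.3% and 13.6% beside 15.8% and 15.7% of catalog probes, so pseudogenes were not set apart from other RNAs by their counts. HSP90AB2P, a copy of the cytosolic chaperone gene HSP90AB1, read 9.65, 9.91 and 9.72 in control cells and 11.03, 11.14 and 11.35 upon OS (log2 1.42 ± 0.17 SE, limma adjusted p = 1.38e-05). PGM5P2, copied from a phosphoglucomutase-like gene of adhesion plaques, rose by 1.21, from 13, 12.74 and 12.71 to 14.06, 14.18 and 13.84. KRT42P was above background on no control array of this pool and on every OS array, at least 2.62-fold higher. SLC9A7P1 (from an exchanger gene of sodium and protons, 1.07), KRT18P55 (from the keratin 18 gene, 1.04), POTEKP (a POTE gene relic with actin-like sequence, 0.92), SH3GL1P1 (from the endophilin A2 gene, 0.67), ANXA2P1 (from the annexin A2 gene, 0.53) and AKR7A2P1 (from an aldehyde reductase gene, 0.49) also rose. Only the AKR7A2P1 arrays overlapped between groups among these. The falls included AFG3L1P (−1.01 at 1 probe), RAB9BP1 (from a small GTPase gene of endosomes, −0.76), GUSBP1 (−0.66 at 1 probe) and LRRC37BP1 (−0.63 at 1 probe). HTR7P1 (from a serotonin receptor gene, −0.52) and PMS2P4 (−0.43) fell too. Without 1 or another array of this pool calls were lost, among them those of AKR7A2P1, ANXA2P1, HTR7P1, PMS2P4, RAB9BP1 and SH3GL1P1, and 9 of the 17 calls were kept without each array in turn. The falls numbered 5 without control replicate 1 or 3 or OS replicate 1 or 2 of this pool, 3 without OS replicate 3, and 16 without replicate 3 of the OS low pool.

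In the low pool, 7 of 93 probes were called higher (background 4.42%) and 5 lower (background 5.45%). TMED11P was above background on no control array and on all 3 OS arrays, at 6.93, 7.04 and 3.55, at least 1.84-fold higher. Its lowest OS value came from the replicate that stood apart, and without it the log2 difference rose from 2.67 to 3.86. PGM5P2 (1.23), HSP90AB2P (1.14), FAM58BP (0.97) and KRT18P55 (0.79) rose with no overlap between groups under quantile normalization, but with arrays scaled to the 75th percentile of all probes together these 4 read −0.05, −0.03, −0.25 and −0.42. LAMB2P1 (1.94) and CYMP (1.28) rose as well. GUSBP1 fell by 1.34 and 0.93 at 2 probes, ANKRD36BP1 by 1.34, AFG3L1P by 0.77 at 1 probe and RP9P, from a gene of inherited retinal degeneration, by 0.53. The calls of CYMP, ANKRD36BP1 and RP9P were lost without replicate 3 of the OS low pool, that of AFG3L1P without control replicate 1, and that of LAMB2P1 without any 1 of 11 arrays. Calls of lower probes numbered 3 without that array or without any 1 control array of the pool, and 16 and 20 without OS replicate 1 or 2, where 12 probes were called higher.

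In the high pool, 4 of 82 probes were called higher upon OS (background 3.57%) and 0 lower (background 2.83%). At an unadjusted p under 0.05 in limma these counts were 11 and 4, so 15 of 82 probes, beside 1739 of 10266 catalog probes. Besides FAM58BP they were TMED11P, above background on no control array and at 6.51, 6.22 and 6.54 upon OS (at least 2.20-fold, adjusted p = 0.00239), PGM5P2 (0.73, adjusted p = 0.00289) and IFITM4P, of the interferon-induced transmembrane family (0.51, adjusted p = 0.0201). The IFITM4P call was lost without any 1 of 4 arrays of this pool. Without replicate 3 of the OS low pool 9 probes were called higher and 2 lower.

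Within control cells pseudogene probes lay more often towards the untranslated pool, and less often towards the high pool, than catalog probes did under the main normalization. Of 78 probes tested, 22 were higher in the high than in the untranslated pool (28.2%) and 36 lower (46.2%), while 42.2% of catalog probes were higher and 31.0% lower. The member median was −0.60 beside 0.35 for the catalog. This split depended on the scaling, with 31 higher and 25 lower after normexp and quantile normalization over all probes, 29 and 22 in the deposited values, 16 and 45 after scaling to the 75th percentile within each category, 19 and 32 over probes above background everywhere, and 33 and 10 over all probes. The catalog medians moved with it, to 0.73, 1.05, −0.10, 0.47 and 1.64. The member medians were −0.01, −0.03, −0.89, −0.32 and 0.85, below the catalog's under every scaling run. Leaving out each array in turn kept 55 of the 58 calls.

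**Figure D3:**
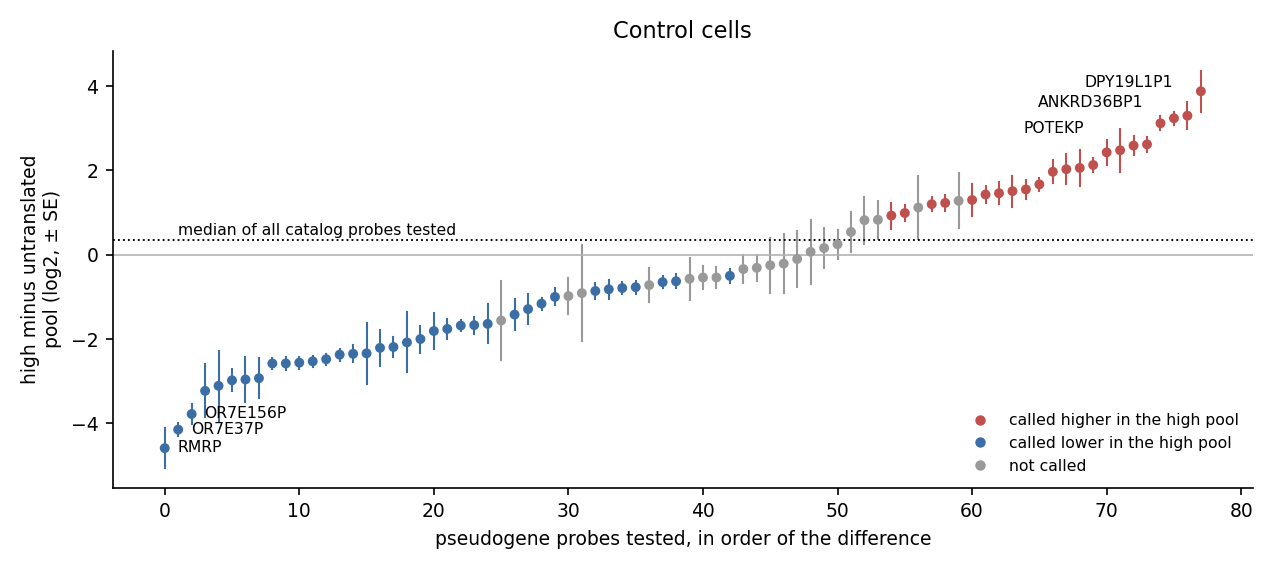
Log2 difference (high minus untranslated pool, ± SE from limma) in control cells for the 78 pseudogene probes tested, in order, coloured by call. The dotted line marks the catalog median of 0.35. RMRP lies lowest at −4.59 and POTEKP, at 3.24, is the highest probe above background in both pools, while DPY19L1P1 and ANKRD36BP1, plotted as measured, were not above background in the untranslated pool.

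At the untranslated end, RMRP, not a pseudogene, read 12.43, 12.65 and 12.71 in the untranslated pool and 8.10, 7.87 and 8.06 in the high pool (−4.59 ± 0.47 SE, limma adjusted p = 8.94e-08). The olfactory receptor family pseudogenes OR7E37P and OR7E156P followed. OR7E37P read 12.55, 12.55 and 12.70 against 8.41, 8.52 and 8.42 (−4.15, adjusted p = 5.71e-14), and OR7E156P differed by −3.78. The replicates of each pool lay close together beside that gap. HBBP1, of the beta-globin cluster, read −3.23, the 3 GUSBP1 probes −3.11, −2.98 and −1.16 (the last at 0.58 with arrays scaled to the 75th percentile of all probes together), and KGFLP2, a copy of a fibroblast growth factor gene, −2.96. The mismatch repair copies lay together, with PMS2P4 at −2.56, PMS2P1 at −2.53 and DTX2P1-UPK3BP1-PMS2P11 at −2.37.

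At the high end, POTEKP read 17.71, 17.48 and 17.63 in the high pool and 14.23, 14.27 and 14.59 in the untranslated pool, a 9.46-fold difference. Matching parents by name set no actin probe beside POTEKP. How much of its signal came from actin mRNA was not tested. DPY19L1P1, copied from a C-mannosyltransferase gene, read 6.43, 6.98 and 7.76 in the high pool and was above background on no untranslated array, at least 1.31-fold higher (limma adjusted p = 1.2e-06). ANKRD36BP1 was at least 1.85-fold higher. ANXA2P1 differed by 3.12, the chaperone copies HSP90AB2P by 2.62 and DNAJA1P5 by 2.43, SLC9A7P1 by 2.59 and KRT18P55 by 2.13. GOLGA2P5, from a golgin gene, read 1.97, GBAP1, from the glucocerebrosidase gene, 1.23 and TPI1P2, from a gene of glycolysis, 1.2. By role, and beside the catalog shares of 42.2% higher and 31.0% lower, 2 of 2 chaperone copies were called towards the high pool. Matching by name set no HSP90AB1 probe beside HSP90AB2P. How much of the HSP90AB2P signal came from HSP90AB1 mRNA was not tested. In the list of mismatch repair and genome maintenance genes, 3 of 3 probes (FAM58BP, PMS2P1 and PMS2P4) were called towards the untranslated pool. These are not 3 separate repair copies, as FAM58BP is named after a cyclin gene and the PMS2P4 probe also lists PMS2P1. Of 4 probes for lysosomal enzyme copies 3, all of GUSBP1, were called that way too. Of 6 probes for cytoskeleton copies 2 were called higher (ANXA2P1 and KRT18P55) and 2 lower (ACTR3BP5 and WASH5P), and of 3 for transporter copies 1 went each way (SLC9A7P1 and ABCA11P). The other role lists had 1 to 3 probes tested each.

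Upon OS 22 of 82 probes tested were higher in the high pool (26.8%, catalog 40.7%) and 31 lower (37.8%, catalog 28.1%). The member median was −0.08 and the catalog's 0.36. The splits under the same 5 scalings were 33 and 22, 31 and 20, 16 and 37, 25 and 28, and 37 and 10. RMRP (−4.64), OR7E37P (−3.63) and OR7E156P (−3.22) again lay lowest, and DNAJA1P5 (2.58) and ANXA2P1 (2.33) highest among probes above background in both pools. DPY19L1P1 was at least 1.17-fold higher, with no untranslated array above background. LRRC37BP1 was called lower at 1 of its 2 probes (−0.39), while the other read −0.02. The called probe was at 0.22 after normexp and 0.28 in the deposited values. It was at 0.15 and 1.23 after scaling to the 75th percentile of probes above background everywhere or of all probes. CTAGE10P and CBX3P2 were called higher but read −0.33 and −0.23 after scaling to the 75th percentile within categories.

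The shift asks whether the gradient itself changed, as the high minus untranslated difference upon OS less that in control cells. Of 84 probes tested, 3 shifted towards the high pool (3.57%, catalog 8.04%) and 6 away from it (7.14%, catalog 8.03%), with a member median of 0.21 beside 0.02. FAM58BP had differences of −2.77, −2.37 and −2.60 in control cells and 0.69, 0.17 and 0.44 upon OS when arrays were matched by number for display, a shift of 3.01 ± 0.18 (SE, limma adjusted p = 5.26e-08). It crossed from the untranslated to the high side, with no overlap. HTR7P1 shifted by 0.96 (adjusted p = 0.00483) and ANKRD36BP2 by 0.63 (adjusted p = 0.0382). SLC9A7P1 shifted away by −1.44 (adjusted p = 0.00753), HSP90AB2P by −1.33 (0.00256), KRT18P55 by −1.32 (0.00118), POTEKP by −1.16 (0.00204), SH3GL1P1 by −1.08 (0.0154) and ANXA2P1 by −0.79 (0.0454), all limma adjusted p. These 6 were all higher in the high pool of control cells and all were called higher in the untranslated pool upon OS, and none was called in the high pool. HSP90AB2P, for instance, had a mean of 12.38 in the high pool of control cells and 12.46 upon OS, against 9.76 and 11.18 in the untranslated pool. The calls of ANXA2P1, ANKRD36BP2 and SH3GL1P1 were lost without 17, 9 and 1 of the 24 arrays, each left out alone (OS high replicate 3 for SH3GL1P1), and the other 6 were kept. No shift was called with arrays scaled to the 75th percentile of all probes together, where FAM58BP read 2.95 (adjusted p = 0.0586) and 8 and 6 of 10369 catalog probes were called, beside 834 and 833 under the main normalization. Without replicate 3 of the OS low pool 12 probes shifted towards the high pool and 11 away. The first count was 5 without control total replicate 1 and 6 without OS high replicate 1.

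**Figure D4:**
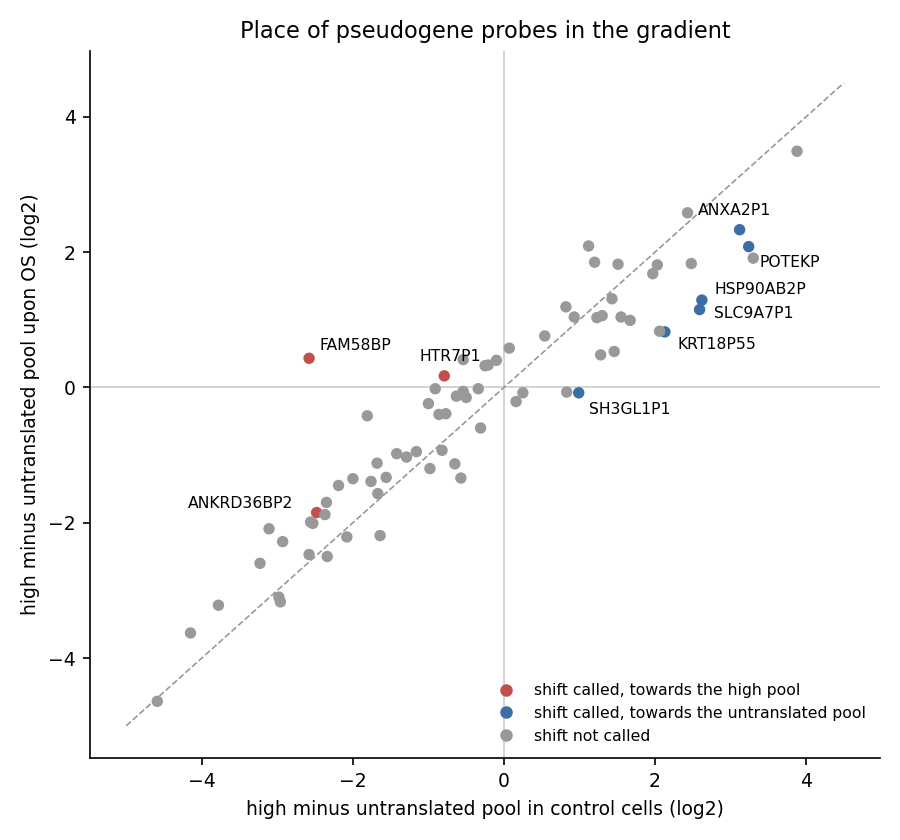
High minus untranslated difference (log2, group means) in control cells and upon OS for the 76 pseudogene probes tested in both, coloured by whether the shift was called. On the dashed line both are equal. FAM58BP goes from −2.58 to 0.43, and the 6 blue probes right of the line, such as POTEKP (3.24 to 2.08), shifted towards the untranslated pool.

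Coding parents by name were on the array for 53 of the genes (69 probes of 49 parent genes). No parent probe was called in total RNA in either direction (0 of 63 tested, with a median of −0.03). Of catalog probes tested there, only 3.07% were called higher and 3.06% lower. In the control gradient 48 pairs of a pseudogene probe and a parent probe were tested in both, of which 14 were both called higher, 17 both lower, and 3 in opposite directions. KRT18P55 and KRT18 differed by 2.13 and 2.37, DNAJA1P5 and DNAJA1 by 2.43 and 3.1, and TPI1P2 and TPI1 by 1.2 and 1.45. 2 DNM1P46 probes were higher in the high pool, by at least 1.17-fold and 1.25-fold, where DNM1 was lower (−1.11), and neither was above background in the untranslated pool. CD99P1 was lower in the high pool, with differences of −2.94, −2.81 and −3.05 when arrays were matched by number for display. CD99 was called higher there, with means of 13.94 in the high and 13.59 in the untranslated pool. PMS2 itself read −0.89, −1.07, −2.10 and −2.32 at its 4 probes, the last of them the probe identical to that of DTX2P1-UPK3BP1-PMS2P11 over its aligned bases. In the shift, KRT18 (−1.49), SLC9A7 (−1.09) and SH3GL1 (−0.87) were called in the direction of their copies, and HTR7 (0.63) and 1 FAM58A probe (0.53) too. Upon OS 12 pairs were both called higher, 9 both lower and 6 in opposite directions, FAM58BP and again CD99P1 among the last. HERC2P2 was lower in the high pool upon OS (−0.98, but 0.50 with arrays scaled to the 75th percentile of all probes together) and HERC2 higher, by at least 1.04-fold, as no untranslated array had HERC2 above background. LAMB2 rose in the low (1.44) and high (1.26) pools, and its untranslated pool mean went from 10.56 in control cells to 12.52 upon OS. It did not rise in total RNA (−0.32, not called), where LAMB2P1 rose. How much of a copy's signal came from its parent's mRNA was not tested.

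**Figure D5:**
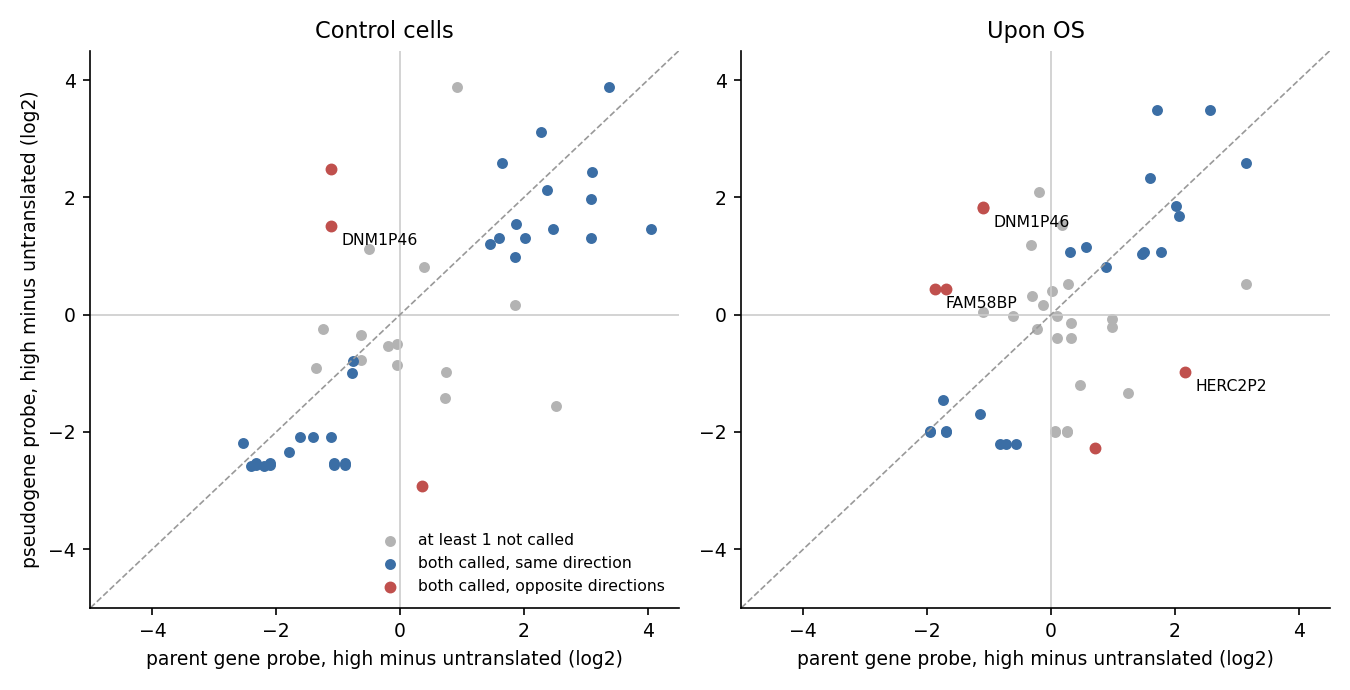
High minus untranslated difference (log2) of pseudogene probes against probes of their coding parents, in control cells (48 pairs) and upon OS (50 pairs). Blue pairs were called in the same direction and red pairs in opposite directions, with DNM1P46 plotted at its measured 2.48 and 1.51, against an untranslated pool not above background, where its parent is at −1.11. A gene with several probes gives several points. The red CD99P1 point in each panel carries no label.

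Of 44 much-studied pseudogenes listed, 9 met the name and accession rule and all 9 were detected, among them GBAP1, ANXA2P1, PMS2P1, PMS2P4, PI4KAP2, WASH5P, GUSBP1 and SBDSP1. In total RNA GUSBP1 alone was called. PI4KAP2, from a lipid kinase gene, was called in no comparison (control gradient −0.54, adjusted p = 0.0899 in limma). WASH5P, from a gene of actin nucleation on endosomes, was lower in the high pool in control cells and upon OS (−0.82 and −0.93), but read 0.85 and 0.62 when scaled to the 75th percentile of all probes together. SBDSP1, from a ribosome maturation gene, had 1 total array at 3.50 beside 10.53 and 10.60, a standard error of 1.13 and no call.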

How the data were processed

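The 24 arrays (1-colour Agilent, custom lncRNA and catalog probes) were scanned and read by the authors with Feature Extraction 10.7.3.1, and the deposited files hold each spot's background-corrected processed signal as a linear intensity. The authors also deposited a log2 table, quantile-normalised over all probes with Partek, which was used as an alternative. Here log2 of the processed intensity was quantile-normalised separately over lncRNA and catalog probes, after 178 probes with outlier marks were left out. limma 3.58.1 (R 4.3.3) was fitted over all 8 groups with eBayes, and p-values were adjusted by Benjamini-Hochberg over the probes tested, with a threshold of 0.05. A probe was tested where 1 compared group had it well above background on all its arrays. The number of arrays, 3 a group, limits the precision. Probe likeness came from blastn 2.17.0 (word size 11, e-value 0.001). Tables and plots were made with python 3.11.15, numpy 2.4.6, pandas 2.3.3 and matplotlib 3.10.9. The fit was tested on simulated data.

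Replicate numbers were checked as pairs. Deviations from group means correlated with a median r of 0.054 over 84 pairs of the same number (−0.152 to 0.322), with 25 over 0.1, and of −0.026 over 168 pairs of other numbers, with 12 over 0.1. Arrays of the same number thus deviated together more often than others. They also lay on the same slide, other than those of the control untranslated pool, so number and slide can hardly be told apart. Control untranslated replicate 2 and control high replicate 1, on 1 slide, had an r of 0.33. Control untranslated replicate 3 and OS low replicate 2, on another, had −0.281. What lay behind this was not tested. As no label ties the numbers, arrays were not paired in the main fit. The methods mention replicates left out as anomalous without naming them, and all 24 arrays were kept. Control untranslated replicates 1 and 2 share a number in their labels and were kept as 2 samples. Named genes were FAM58BP and HERC2P4, up to 3 called genes per comparison and direction with the largest difference and no overlap, a list of much-studied pseudogenes, non-pseudogenes the pattern took in, parents, and examples by role. Others named were chosen after their values were seen. The members and lists were chosen with earlier results of these data known. A planned search for parents by protein sequence was not done, as no protein sequences were used here, and parents were taken by name. Alternatives changed the background correction, normalization, filter, moderation, blocks and arrays. Some results are not reported here.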

Additional observations from a re-analysis of the deposited data

Results flagged for a closer look

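For 9 probes the difference between the high and untranslated pools itself differed between OS and control cells by the interaction term of limma. The log2 shifts were 3.01 for FAM58BP, 0.96 for HTR7P1 and 0.63 for ANKRD36BP2, and −1.44 for SLC9A7P1, −1.33 for HSP90AB2P, −1.32 for KRT18P55, −1.16 for POTEKP, −1.08 for SH3GL1P1 and −0.79 for ANXA2P1. All but ANKRD36BP2, ANXA2P1 and SH3GL1P1 were called under every other setting that tested them, leaving out each array included apart from scalings chosen after seeing the data, and none was called with arrays scaled to the 75th percentile of all probes together.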

How the results depend on the processing

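Of 168 called probe differences, the 5847 values under alternatives kept direction and call in 5464 cases, lost the call in 354 and reversed in 29. The scalings to the 75th percentile of all probes together and of probes above background on all arrays were chosen after seeing the data. The cause of these changes was not tested.

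With both groups above background, counts of higher probes were 1 of 78 in total RNA (catalog 168 of 9482), 14 of 54 and 13 of 56 in the control and OS gradients (2812 of 7241 and 2856 of 7656), and 6 of 53 in the shift (1078 of 7013). After normexp 12 were lower in total RNA. With no filter 4, and with control untranslated replicates 1 and 2 averaged 5, were lower in the untranslated pool. Scaling to the 75th percentile within categories gave 16 higher in the low pool, 7 higher and 1 lower in the high pool, and 6 shifted up. The slide block, the replicate block and no moderation each gave 1 lower in the high pool, and no moderation 6 shifted up. In the deposited values 22 and 20 were lower in the control and OS gradients. Over all probes together, 4 were lower in total RNA, 1 higher and 0 lower in the untranslated pool, 4 higher and 8 lower in the low pool, 10 lower in the control gradient, 37 higher and 10 lower upon OS, and 0 shifted either way (catalog 8 and 6 of 10369). Over probes above background on all arrays, 14 were lower in the untranslated pool, 18 higher in the low pool, 8 higher and 3 lower in the high pool, and 14 shifted up.

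Leaving out 1 array at a time gave 7 to 10 higher and 5 to 11 lower in total RNA, 6 to 11 and 3 to 16 in the untranslated pool, 5 to 12 and 3 to 20 in the low pool, 3 to 9 and 0 to 2 in the high pool, 21 to 24 and 35 to 40 in the control gradient, 19 to 25 and 25 to 33 in the OS gradient, and 2 to 12 and 4 to 11 in the shift. The replicate block gave 22 higher and 38 lower in the control gradient and the slide block 22 and 37. No label says that the numbers pair the arrays.

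Reversed log2 differences under the within-category 75th percentile were CBX3P2 −0.23 and CTAGE10P −0.33 upon OS, and CTAGE10P −0.58 in control cells. After normexp they were LRRC37BP1 0.22 upon OS and AFG3L1P 0.01 in control cells, in the deposited values LRRC37BP1 0.28 upon OS, and over probes above background on all arrays CTAGE10P −0.01 in control cells and LRRC37BP1 0.15 upon OS. Over all probes together they were, in the low pool, HSP90AB2P −0.03, PGM5P2 −0.05, FAM58BP −0.25 and KRT18P55 −0.42, in the control gradient HERC2P2 0.06, OSTCP1 0.56, GUSBP1 0.58, PFN1P2 0.85 and 1.05, WASH5P 0.85, HTR7P1 0.94, PGM5P2 0.94, LRRC37BP1 0.96 and AFG3L1P 1.12, and in the OS gradient FAM86FP 0.09, PGM5P2 0.12, REREP3 0.15, HERC2P2 0.5, WASH5P 0.62, GUSBP1 0.69 and LRRC37BP1 1.23.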
